A study of Mus musculus with 15 samples.

Results

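RNA polymerase II (Pol2) and trimethylation of lysine 4 of histone H3 (H3K4me3) were compared at every protein-coding transcription start site (TSS) of αTN4 cells. The line derives from mouse lens epithelium and was transformed by SV40 T antigen. The cells carried a control shRNA delivered by lentivirus and were a puromycin-selected stable population, not a single clone. A TSS was placed in 1 of 4 classes by whether a Pol2 peak and an H3K4me3 peak, each called by the authors from 1 ChIP-seq library, reached within 1 kb of it. The annotation holds 45962 distinct TSSs of 22335 protein-coding genes in the mouse genome build mm9, and all of them were classed. Of these, 20676 (45.0%) had both peaks, 1366 (2.97%) had H3K4me3 only, 750 (1.63%) had Pol2 only and 23170 (50.4%) had neither. Control cells also gave lists for H3K4me1, H3K4me2 and Pax6. Cells with the Pax6 shRNA (Pax6 KD, construct sh2 in the study's methods) gave the 3 H3K4 methylation marks, and lenses of newborn CD-1 mice at day 1 gave H3K4me2. These other lists were used only to describe the 4 classes. The field of the labels that names the antibody is exchanged between the Pax6 and Pol2 libraries. The lists were assigned by title and source, and they differ as the titles would have it: 67.9% of 17204 Pol2 peaks and 8.93% of 504 Pax6 peaks reached within 1 kb of a TSS.

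Pol2 transcribes all protein-coding genes and often pauses shortly downstream of the start before it is released into the gene body, so that its ChIP signal tends to be highest near the TSS. H3K4me3 is laid down by the SET1 and MLL methyltransferase complexes on the nucleosomes that flank active starts, and also marks CpG islands, in part through proteins that bind unmethylated CpG. H3K4me2 spreads over promoters and enhancers, and H3K4me1 is best known from enhancers. Many promoters with a TATA box lie outside CpG islands.

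The classes differed in the sequence just upstream of the start. To show this, the 150 bases before the most upstream TSS of 5 genes follow, read from the mm9 sequence on the strand of the gene. CpG dinucleotides are in capitals, and so is the word TATAAA where it begins 40 to 20 bases before the start. Polr2a (the largest subunit of Pol2, chr11:69572140-69572289 (minus strand)) had both peaks. Braf (a kinase of the MAP kinase pathway, chr6:39675463-39675612 (minus strand)) and Rab12 (a small GTPase of membrane traffic, chr17:66869058-66869207 (minus strand)) had H3K4me3 only. Ecm1 (a protein of the extracellular matrix, chr3:95543493-95543642 (minus strand)) had Pol2 only, and Alb (serum albumin, chr5:90889765-90889914 (plus strand)), a gene of the liver, had neither. These genes were chosen after their values were seen.
Polr2a: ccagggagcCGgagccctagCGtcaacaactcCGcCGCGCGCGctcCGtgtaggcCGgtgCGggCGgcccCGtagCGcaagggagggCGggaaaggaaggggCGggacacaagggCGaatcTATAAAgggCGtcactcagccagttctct
Braf: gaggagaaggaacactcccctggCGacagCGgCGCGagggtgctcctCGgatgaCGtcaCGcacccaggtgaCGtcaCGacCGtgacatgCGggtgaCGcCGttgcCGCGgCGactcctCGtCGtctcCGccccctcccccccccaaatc
Rab12: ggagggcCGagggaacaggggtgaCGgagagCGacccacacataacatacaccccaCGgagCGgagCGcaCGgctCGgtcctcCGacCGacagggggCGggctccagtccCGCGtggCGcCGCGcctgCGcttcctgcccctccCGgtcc
Ecm1: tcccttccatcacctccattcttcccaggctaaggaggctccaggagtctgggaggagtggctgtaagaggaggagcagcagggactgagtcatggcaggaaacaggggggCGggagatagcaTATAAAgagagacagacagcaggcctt
Alb: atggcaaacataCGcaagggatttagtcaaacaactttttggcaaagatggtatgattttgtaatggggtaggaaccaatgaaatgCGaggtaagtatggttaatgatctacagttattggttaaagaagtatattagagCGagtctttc

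The windows of Polr2a, Braf and Rab12 hold 17, 19 and 18 CpG dinucleotides, and those of Ecm1 and Alb hold 1 and 3. TATAAA begins at −29 in Polr2a and at −27 in Ecm1, and these letters are not in that stretch of the other 3. Over all TSSs the contrast in CpG content was also seen, in a wider window. CpG content was measured as the observed over the expected number of CpG in the 500 bp on either side, and a TSS with a ratio of at least 0.6 is called CpG-rich. The median ratio was 0.75 in the class with both peaks, 0.70 with H3K4me3 only, 0.29 with Pol2 only and 0.25 with neither. CpG-rich TSSs made up 80.1% (95% Wilson interval 79.5 to 80.6) of the class with both, 63.8% (61.2 to 66.3) with H3K4me3 only, 15.7% (13.3 to 18.5) with Pol2 only and 13.7% (13.2 to 14.1) with neither, against 45.1% of all TSSs. Intervals of shares and medians in this text cover counting error only, and they are too narrow because neighbouring TSSs share peaks and sequence.

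Of 3 short promoter words, GGGCGG had the same order of the classes as CpG content, and CCAAT did not. TATAAA was rare in every class and more frequent with Pol2 only and with neither, the classes low in CpG. TATAAA on the gene's strand from 40 to 20 bases upstream was present at 0.605% of TSSs with both peaks and at 0.586% with H3K4me3 only, but at 2.67% (1.73 to 4.08) with Pol2 only and 2.48% with neither. The background over all TSSs was 1.58%. The GC-box word GGGCGG, searched on both strands in the 100 bases upstream, was present at 47.8%, 43.8%, 25.9% and 14.1% of the TSSs with both, H3K4me3 only, Pol2 only and neither, against 30.4% of all. It holds a CpG and so is not independent of the CpG measure. CCAAT, searched the same way, was present at 20.5% with both, 13.3% with H3K4me3 only, 18.8% with Pol2 only and 15.2% with neither, against 17.6% of all. A match of letters was taken as a description and not as a binding site.

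Pol2 and H3K4me3 were found at nearly the same starts. TSSs with both peaks were 45.0% (44.5 to 45.4) of all, those with neither 50.4% (50.0 to 50.9), and those with one and not the other 4.60% (4.42 to 4.80). H3K4me3 without Pol2 accounted for 2.97% (2.82 to 3.13) and Pol2 without H3K4me3 for 1.63% (1.52 to 1.75). Of 21426 TSSs with Pol2, 96.5% (96.2 to 96.7) had H3K4me3, and of 22042 TSSs with H3K4me3, 93.8% (93.5 to 94.1) had Pol2. Of the 24536 TSSs without Pol2, 5.57% had H3K4me3. Counted by gene, with a gene taken to have a peak if any of its TSSs had it, 10219 genes had both (45.8%), 629 had H3K4me3 only (2.82%), 326 had Pol2 only (1.46%) and 11161 had neither (50.0%). Neighbouring starts of one gene could differ: among 10435 genes with several TSSs, 2999 (28.7%) had TSSs of more than 1 class. When only the 10000 peaks of highest −log10 q in each list were kept, the share with H3K4me3 only rose to 5.25% and that with Pol2 only to 3.95%, while the share with both fell to 36.3%. The classes with a single peak therefore depend on how many peaks each list holds, and the depth of these libraries is unknown.

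Most TSSs with a single peak were far from the missing one. No Pol2 peak lay within 10 kb of 1006 of the 1366 TSSs with H3K4me3 only, and the median gap was 43779 bp. No H3K4me3 peak lay within 10 kb of 449 of the 750 TSSs with Pol2 only, with a median gap of 18177 bp. The missing peak lay between 1 and 2 kb away at 204 TSSs with H3K4me3 only and at 103 with Pol2 only. At the 1 kb limit, a Pol2 peak reached to 801 to 1000 bp of 205 TSSs and to 1001 to 1200 bp of 190. For H3K4me3 these counts were 151 and 130. Sim1 and Klf1, with the nearest Pol2 peak 993 and 992 bp away, fell inside the limit, and Tpm2 and Esrp2, both at 1004 bp, fell outside. For H3K4me3, Ushbp1 (1000 bp) and Dnajc6 (995 bp) were just inside, and Exoc3l (1002 bp) and Ankrd49 (1039 bp) just outside.

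Where a peak stood alone it was narrower and weaker than where both were present. The strongest peak at each TSS was used, and a peak shared by several TSSs was counted once within a class. A peak that reached TSSs of different classes was counted in each of them. A peak called alone thus lacked the other factor within 1 kb of that TSS, and may have had it at another TSS. The 9381 Pol2 peaks of the class with both had a median width of 821 bp (95% interval 810 to 831, quartiles 583 and 1137), and the 463 Pol2 peaks without H3K4me3 had a median of 460 bp (432 to 493, quartiles 321 and 767). H3K4me3 peaks were 1077 bp wide with Pol2 (1067 to 1088, quartiles 803 and 1456, 9394 peaks) and 678 bp without it (630 to 706, quartiles 408 and 996, 804 peaks). The quartiles of the paired groups overlap, so width did not separate the classes peak by peak. The widest Pol2 peak was 7802 bp in the class with both and 6574 bp with Pol2 only. The widest H3K4me3 peak was 6106 bp in the class with both and also 6106 bp with H3K4me3 only.

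Fold enrichment, the ratio of ChIP signal over background that MACS2 gives at the summit, was also lower in peaks that stood alone. Its median was 14.7 for Pol2 with H3K4me3 and 6.85 for Pol2 alone, which is the 69.7th and the 35.1st percentile of the Pol2 list. For H3K4me3 it was 23.2 with Pol2 and 10.8 alone, the 66.2nd and the 29.8th percentile. Several peaks within 1 kb of one TSS were more frequent in the class with both: 31.5% of its TSSs had at least 2 H3K4me3 peaks, against 16.0% of those with H3K4me3 only. For Pol2 the shares were 18.6% and 10.0%. With only the 10000 strongest peaks per list, the median width of Pol2 peaks alone was 768 bp in place of 460 bp, and that of H3K4me3 peaks alone 970 bp in place of 678 bp.

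**Figure D1:**
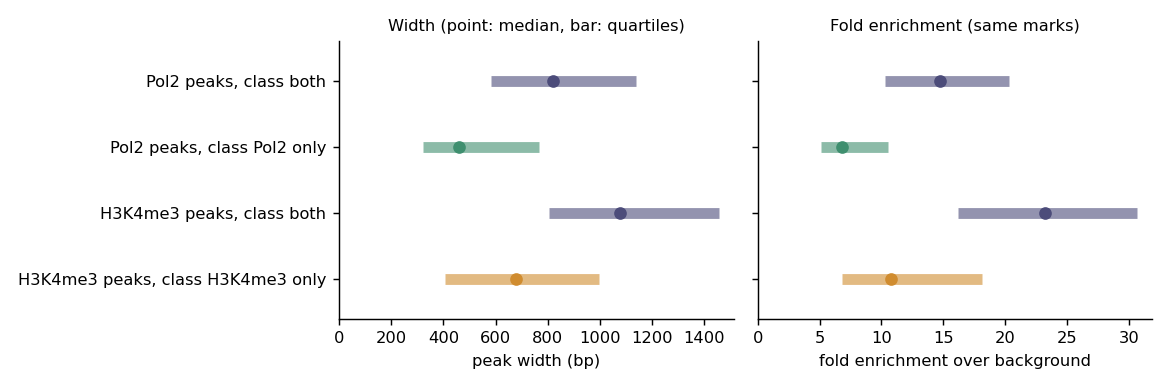
Peak width in bp (left) and fold enrichment (right) of the Pol2 and H3K4me3 peaks at TSSs of each class in control αTN4 cells, with 1 library per factor. Points are medians and bars run from the lower to the upper quartile. Pol2 peaks had a median width of 821 bp in the class with both and 460 bp alone, and H3K4me3 peaks 1077 and 678 bp.

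The summits of the 2 factors lay at different distances from the start. Positions are given along the gene, with negative values upstream. The median Pol2 summit was at +20.0 bp (17.0 to 23.0, quartiles −244 and 94.0) in the class with both and at +19.5 bp (3 to 30.0, quartiles −230 and 147) with Pol2 only. H3K4me3 summits had a median of +290 bp (287 to 294, quartiles 167 and 461) with Pol2 and +243 bp (223 to 259, quartiles −174 and 460.5) without it. A Pol2 summit lay within 100 bp of 37.4% of the TSSs with both, and an H3K4me3 summit within 100 bp of 3.61%.

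Counted at every start of each gene, Pol2 summits fell into a sharp group on the start and a broader one upstream. The bins were not made for the most upstream starts alone, where fewer summits lay upstream. Among the TSSs with both peaks, no TSS of another gene within 1 kb and a summit within 1 kb, 33.0% of Pol2 summits lay 0 to 100 bp downstream and 13.3% lay 100 to 200 bp downstream. Summits were counted once for each TSS, so starts of a gene that share a peak repeat its summit. Before the limit on the summit, the 16261 such TSSs with both shared 8339 Pol2 peaks, and the 701 with Pol2 only shared 444. The bin from −100 to 0 held 7.50%, fewer than the next bins upstream, with 9.79% from −200 to −100 and 8.87% from −300 to −200. The class with Pol2 only had 28.8%, 9.93% and 11.6% in the bins 0 to 100, −100 to 0 and −200 to −100. With the summits of 59 and 69 of 594 TSSs in the last 2, a dip could not be resolved. H3K4me3 summits were few on the start itself, with 2.77% from 0 to 100 bp, and most frequent from 200 to 300 bp downstream, with 25.4%. In the class with H3K4me3 only, the same bin held 15.6%, and the summits were spread more widely.

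**Figure D2:**
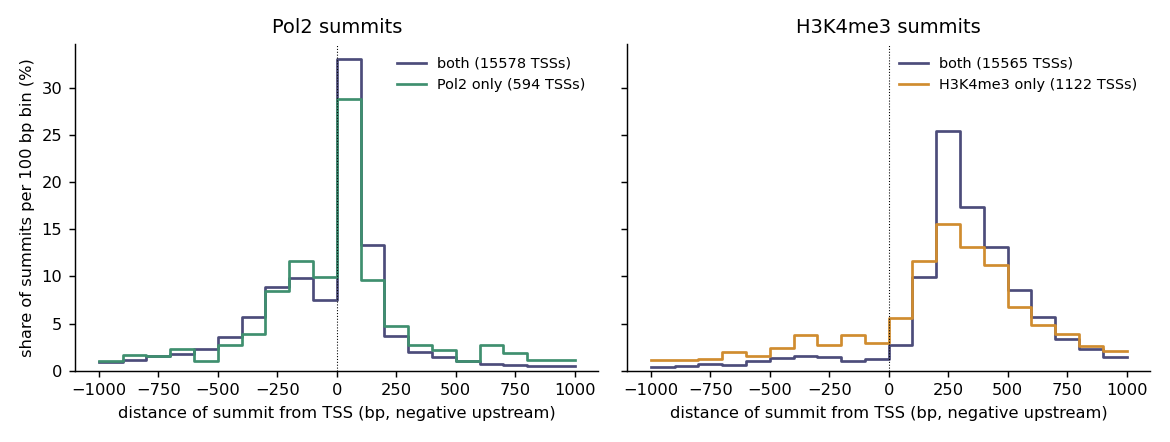
Share of summits in each 100 bp bin (percent) against the distance from the TSS in bp, for Pol2 (left) and H3K4me3 (right), at TSSs with no TSS of another gene within 1 kb and a summit within 1 kb. Summits are counted once for each TSS. Lines are classes. Pol2 summits of the class with both reach 33.0% from 0 to 100 bp and H3K4me3 summits 25.4% from 200 to 300 bp.

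Fewer summits lay upstream where the TSS was the most upstream of its gene and had no neighbour. At the 7570 most upstream TSSs of genes with both peaks and no neighbour within 1 kb, the median Pol2 summit was at +57.0 bp and 34.7% (33.6 to 35.8) of the summits were upstream, against 46.3% over all TSSs of the class. For H3K4me3 these TSSs had a median of +365 bp and 4.90% (4.44 to 5.41) upstream, against 18.4%. In the class with H3K4me3 only, the corresponding 570 TSSs had a median of +344 bp, and 14.4% (11.7 to 17.5) of the summits were upstream. At the 316 such TSSs with Pol2 only, the median was +36.5 bp, with 39.6% (34.3 to 45.0) upstream, an interval that overlaps that of the class with both only from 34.3 to 35.8.

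Starts with a divergent gene within 1 kb upstream were 17.7% of the TSSs with both, 2.86% with H3K4me3 only, 3.33% with Pol2 only and 1.15% with neither. At the 3651 of them with both peaks, the median Pol2 summit was at −107 bp (−118 to −88.0). The H3K4me3 summits lay on both sides of the start, with quartiles of −541 and 311 bp, a median of −180 bp whose interval spans the TSS (−269 to 55.0), and 51.2% upstream. A TSS of any other gene within 1 kb, in either orientation, was present at 21.4% of the TSSs with both, 5.64% with H3K4me3 only, 6.53% with Pol2 only and 2.51% with neither, against 11.1% of all.

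Measured within single promoters, H3K4me3 lay downstream of Pol2. At 7116 TSSs that were the most upstream of their gene, had no neighbour within 1 kb and had both summits within 1 kb, the H3K4me3 summit was a median of 312 bp downstream of the Pol2 summit (301 to 320, quartiles 178 and 544). It was downstream at 6633 of them (93.2%). The Pol2 summit lay inside the H3K4me3 peak at 4946 (69.5%) and outside it at the rest. Actb, which encodes cytoplasmic β-actin, had the same order at a TSS outside this set, on chromosome 5 at 143668381. The Pol2 summit was 18 bp downstream in a peak of 6724 bp. The H3K4me3 summit was 1160 bp downstream, so beyond 1 kb, in a peak of 2003 bp that did not reach the Pol2 summit.

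The strengths of the 2 factors were related, though loosely. Across 8635 TSSs of the class with both, 1 per peak, Spearman's rho between Pol2 fold and H3K4me3 fold was 0.32, and between Pol2 fold and H3K4me3 width 0.31. These are descriptions across promoters within 1 pair of libraries, and promoters share base composition and mappability. From the lowest to the highest quartile of Pol2 fold, the median H3K4me3 width was 904, 1046, 1137 and 1319 bp, and the median H3K4me3 fold 18.5, 23.0, 25.3 and 28.0. Both rose at each step. A Pol2 peak in the gene body, beyond 1 kb of any TSS, was present at 14.7%, 15.9%, 17.6% and 24.2% of the genes in these quartiles. The end of a wide peak at the start counted here too. The median Pol2 width rose from 520.5 bp in the lowest quartile to 1136 bp in the highest, so this share is not independent of the quartiles.

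Whether a Pol2 peak came with H3K4me3 varied with CpG content and with the strength of the peak. At CpG-rich TSSs 99.3% (99.2 to 99.4) of those with Pol2 had H3K4me3, and this was 97.8% even in the lowest quartile of Pol2 fold. At CpG-poor TSSs the share was 86.7% (85.7 to 87.6), and it ran from 74.0% (72.0 to 76.0) in the lowest quartile through 91.1% and 95.4% to 97.2% (95.9 to 98.1) in the highest. CpG-poor TSSs with weak Pol2 peaks thus made up most of the class with Pol2 only. In the opposite direction, Pol2 was present at 16557 of 17428 CpG-rich (94.7 to 95.3%) and 4119 of 4614 CpG-poor TSSs with H3K4me3 (88.3 to 90.1%). The CpG-rich share ran from 82.3% (81.0 to 83.5) in the lowest quartile of H3K4me3 fold through 96.1% and 98.7% to 99.5% (99.3 to 99.7) in the highest. The CpG-poor share was 81.7% (80.0 to 83.3), 95.9%, 95.3% and 94.4% (92.4 to 95.9), so the groups were alike in the lowest quartile and apart in the highest. The intervals of the upper 3 CpG-poor quartiles overlap.

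**Figure D3:**
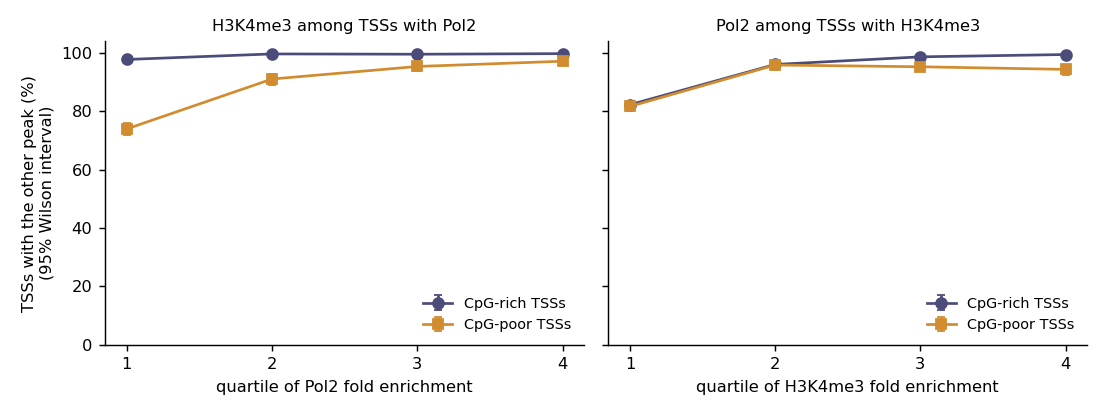
Percent of TSSs with the other peak, by quartile of fold enrichment, for CpG-rich and CpG-poor TSSs in control αTN4 cells. Left, H3K4me3 among TSSs with Pol2, and right, Pol2 among TSSs with H3K4me3, with 95% Wilson intervals. The lowest left point is 74.0% for CpG-poor TSSs, against 97.8% for CpG-rich ones.

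Seen from the sequence, 79.9% of 20711 CpG-rich TSSs had both peaks, 4.21% H3K4me3 only, 0.570% Pol2 only and 15.3% neither. Of 25251 CpG-poor TSSs, 16.3% had both, 1.96% H3K4me3 only, 2.50% Pol2 only and 79.2% neither. Of the 728 TSSs with TATAAA, 79.0% had neither peak and 17.2% had both.

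The strongest Pol2 peaks of the class with both were at histone genes, Actb, Gtf3c6 and Lgals1. By Pol2 fold its first 6 genes were Hist2h2bb (a replication-dependent H2B histone gene) at 79.9, Gtf3c6 (a subunit of the RNA polymerase III factor TFIIIC) at 79.2, Actb at 75.1, H3f3b (histone H3.3) at 71.9, Hist1h3f (an H3 histone gene) at 70.4 and Lgals1 (galectin-1, a galactose-binding lectin) at 69.0. Their Pol2 peaks ran from 2234 bp at Hist2h2bb to 6724 bp at Actb. The Pol2 summit was within 50 bp of the TSS at Hist2h2bb, Actb, H3f3b and Lgals1, 442 bp downstream at Hist1h3f and 988 bp upstream at Gtf3c6. H3K4me3 fold divided them: it was 44.6 at Actb, 40.0 at H3f3b, 39.2 at Lgals1 and 27.5 at Gtf3c6, but 11.7 and 10.2 at the histone genes Hist2h2bb and Hist1h3f. Lgals1 is CpG-poor, with an observed over expected ratio of 0.27, and yet had strong peaks of both factors.

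The class with H3K4me3 only held strong and wide peaks as well as weak ones. The highest H3K4me3 folds were at Braf, 48.8, Suds3 (a subunit of the Sin3 corepressor), 40.8, Rab12, 38.0, Adrbk1 (a kinase of G protein-coupled receptors), 37.0, Plcl2 (a phospholipase C-like protein), 33.1, and Rassf3 (a Ras association domain protein), 32.1. Braf stood at the 99.1st percentile of the H3K4me3 list. All 6 were CpG-rich, with ratios from 0.75 to 1.06, and the H3K4me3 summits lay 186 to 466 bp downstream of the TSS. The nearest Pol2 peak was 3653 bp away at Suds3, 85384 bp at Braf and 668649 bp at Plcl2. Beyond 1 kb of the TSSs, no part of the bodies of these 6 genes was covered by a Pol2 peak. H3K4me3 was also present in Pax6 KD cells at all 6.

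Among genes with an H3K4me3 peak and no Pol2 peak at any TSS, and leaving out 1 without a gene name, the widest H3K4me3 peaks were at Axin2 (a Wnt target that feeds back on the pathway), 2326 bp, Plxna1 (a semaphorin receptor), 1858 bp, Tll1 (a metalloprotease of the extracellular matrix), 1816 bp, and Tcf7 (a transcription factor of the Wnt pathway), 1782 bp. Their folds, from 13.6 at Tll1 to 29.8 at Tcf7, were lower than those of Braf and Suds3. Pol2 peaks covered 0.975% of the body of Plxna1 and 3.38% of that of Tcf7, and none of Axin2 or Tll1.

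Pol2 without H3K4me3 reached high folds at a few genes, among them histone genes and the CpG-poor genes Ecm1 and Acy3. The highest fold was at Rdm1 (a protein related to the recombination factor RAD52), 81.9, where the peak was 2156 bp wide and the nearest H3K4me3 peak 37674 bp away. Other high folds were at the histone genes Hist1h1a (55.3) and Hist1h4c (53.6), at Ecm1 (22.1), at Acy3 (an aminoacylase, 21.5) and at Tceanc (related to the elongation factor TFIIS, 20.8). Apart from Rdm1, with a summit 356 bp upstream of the nearest TSS, summits of these genes were within 143 bp of the start. Ecm1 and Acy3 had CpG ratios of 0.13 and 0.19, while Rdm1, Hist1h1a, Hist1h4c and Tceanc were CpG-rich, with ratios of 0.61 to 0.82. H3K4me2 was present at all 6 in control cells, and H3K4me3 at none of the 6 in Pax6 KD cells. At Tceanc the nearest H3K4me3 peak was 30720 bp away and at Hist1h1a 1497 bp, so the class of Hist1h1a depends on the window.

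The other marks of H3K4 methylation, which the classes did not use, separated TSSs with any peak from those with none. H3K4me2 peaks of control cells were present at 99.9%, 98.3% and 94.8% (93.0 to 96.2) of the TSSs with both, H3K4me3 only and Pol2 only, and at 14.3% (13.9 to 14.8) with neither, against 56.6% of all. Starts with Pol2 only were therefore not free of H3K4 methylation. The median fold of these H3K4me2 peaks was 18.7 with both, 16.4 with H3K4me3 only, 14.7 with Pol2 only and 7.70 with neither. Fold and presence come from 1 library for each mark.

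H3K4me1 islands, the broad regions that SICER called, were most frequent at TSSs with Pol2 only. They reached 68.7% (65.3 to 71.9) of that class, 45.1% (44.4 to 45.8) with both, 32.1% (29.7 to 34.7) with H3K4me3 only and 13.4% with neither, against 29.1% of all. The islands held a like density of reads in every class, from 19.7 ChIP reads per kb with H3K4me3 only to 23.0 with Pol2 only. Those of the class with Pol2 only were the widest, with a median of 4600 bp against 2800 bp with both. Of the TSSs with Pol2 only, 189 (25.2%) belong to a gene that has both peaks at another TSS over 1 kb away, against 15.6% of all TSSs. Of these 189, 4.76% were CpG-rich and 76.2% had H3K4me1. At the 555 whose gene has no TSS with both, 19.3% were CpG-rich and 66.1% had H3K4me1.

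In Pax6 KD cells the H3K4me3 list gave much the same division. A KD peak was present at 98.5% of the control TSSs with both, 73.3% (70.9 to 75.6) with H3K4me3 only, 8.93% (7.10 to 11.2) with Pol2 only and 0.216% with neither, against 46.7% of all. Control H3K4me3 peaks were weaker where the KD list had none. At the 365 TSSs with H3K4me3 only and no KD peak, the control peaks had a median fold of 6.04 and a median width of 358 bp, and at the 1001 with a KD peak 13.3 and 782 bp. At the 311 TSSs with both and no KD peak these medians were 6.59 and 353 bp. With 1 library in each condition, an effect of Pax6 and a difference between libraries cannot be told apart. KD H3K4me2 kept the order of the control, at 99.9%, 98.2%, 94.7% and 12.2% against 55.6% of all. KD H3K4me1 was lower in every class, at 16.9%, 10.5%, 44.5% and 7.48% against 12.4% of all, and again most frequent with Pol2 only. The KD list of islands is shorter as a whole, with 18417 against 38007.

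**Figure D4:**
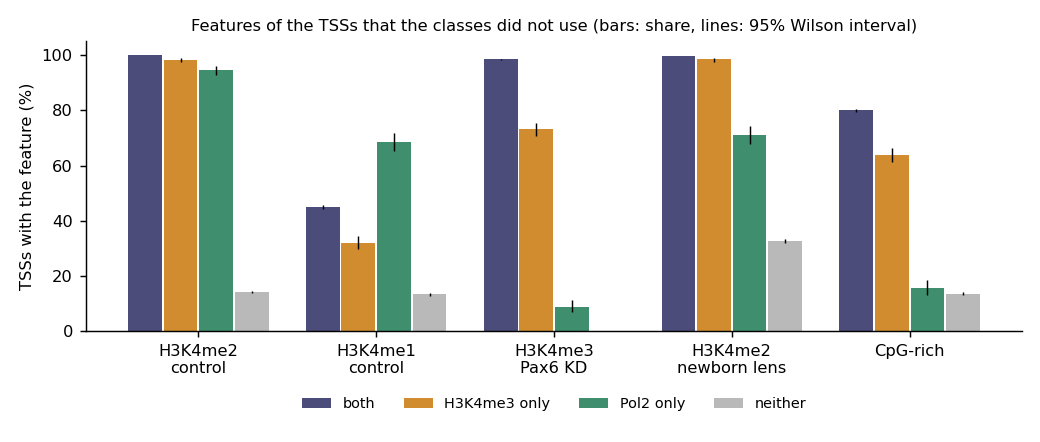
Percent of TSSs in each class with features that the classes did not use: an H3K4me2 peak or H3K4me1 island in control cells, an H3K4me3 peak in Pax6 KD cells, an H3K4me2 peak in newborn lens, and a CpG-rich sequence. Lines are 95% Wilson intervals. TSSs with Pol2 only have the highest share with H3K4me1 (68.7%) and are CpG-rich in 15.7%.

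In newborn lens, H3K4me2 was present at 99.6% of TSSs with both, 98.5% with H3K4me3 only, 71.1% (67.7 to 74.2) with Pol2 only and 32.6% (32.0 to 33.3) with neither, against 65.4% of all. TSSs with H3K4me3 only thus came within about 1 percentage point of those with both, and TSSs with Pol2 only stayed well below. The class with neither was divided by CpG content. Lens H3K4me2 was present at 94.6% (93.7 to 95.3) of its 3165 CpG-rich TSSs, where control αTN4 H3K4me2 was present at 23.5% (22.1 to 25.0). At its 20005 CpG-poor TSSs these shares were 22.8% and 12.9%. In all, 5333 TSSs with neither peak had H3K4me2 in lens and not in αTN4 cells, and 1086 the reverse. The lens holds epithelium, fibres and whatever other cells were taken with it, and the part of each was not tested. Pax6 peaks were few at any TSS, at 80 in all (0.174%): 62 with both, 3 with H3K4me3 only, 5 with Pol2 only and 10 with neither.

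Pol2 peaks in the gene body were least frequent in genes with neither peak at the start. Among genes with at least 2 kb of body beyond 1 kb of any TSS, a Pol2 peak was found there in 1732 of 9438 with both (18.4%, 17.6 to 19.1), 72 of 574 with H3K4me3 only (12.5%, 10.1 to 15.5), 55 of 256 with Pol2 only (21.5%, 16.9 to 26.9) and 392 of 7619 with neither (5.15%, 4.67 to 5.66), against 12.6% of all. The share with H3K4me3 only was near that of all genes, and the intervals of the classes with both and with Pol2 only overlap. A Pol2 peak at the start that ran on beyond 1 kb was also counted as body. Genes with H3K4me3 only or with neither could not have such a peak. The class rule itself thus raises the shares of the classes with Pol2, by an amount that was not tested. Where a gene had any such peak, the peaks covered a median of 1.39% of the body over all genes. A peak caller for narrow peaks finds little of the spread signal of elongating Pol2, so these shares are of peaks and not of transcribed genes.

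Gene families were classed by gene and read against the shares over all genes (45.8% both, 2.82% H3K4me3 only, 1.46% Pol2 only, 50.0% neither). Genes that every growing cell uses nearly all had both peaks. This held for 77 of 77 cytosolic ribosomal protein genes, 14 of 14 genes of glycolysis, 20 of 20 of DNA replication, 21 of 21 of Pol2 subunits and pausing factors and 16 of 16 of the H3K4 methylation complexes. It held for 37 of 40 proteasome genes (Psmb9 is listed as 2 entries, each with both), where the exceptions, each with neither peak, were Psma8 and Psmb11, known from testis and thymus, and Psmb8, a subunit of the immunoproteasome. Of 78 genes of the respiratory chain and ATP synthase, 71 had both, Cox7a1 had Pol2 only, and Cox6a2, Cox6b2, Cox7b2, Cox8b and Cox8c had neither. The annotation lists Ndufb8 as 2 entries, both counted among the 78, of which 1 had both peaks and 1 neither. Cox6a2, Cox7a1 and Cox8b encode forms known from muscle, and Cox6b2 and Cox8c forms known from testis.

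Among the genes with both peaks, strength differed by family. Over all of them the median Pol2 fold was 15.2 and the median H3K4me3 fold 24.0. Ribosomal protein genes were above both, at 30.3 (range 10.9 to 65.7) and 35.3 (15.1 to 54.2), with H3K4me3 peaks of a median of 1747 bp against 1104 bp. Genes of Pol2 subunits and pausing factors had a Pol2 fold of 15.9 and an H3K4me3 fold of 39.6. Immediate early genes, which are induced within minutes of a stimulus and are known for paused Pol2, all 25 had both peaks, with a median Pol2 fold of 33.0 (5.62 to 63.3) and an H3K4me3 fold of 23.4 (6.04 to 40.0). The Pol2 fold was 63.3 at Ier2, 60.7 at Junb and 33.0 at Fos, both subunits of AP-1, and 51.6 at Cyr61, a matricellular protein. The summits at Ier2, Junb, Fos and Cyr61 were 33.0, 37.0, 37.0 and 52.0 bp downstream of the start. At Fos the H3K4me3 fold was 12.1, with its summit at 236 bp.

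Replication-dependent histone genes, which are transcribed in S phase from clusters of short genes without introns, stood out by strong Pol2 and weak H3K4me3. Of 66, 60 had both peaks (90.9%), Hist1h1a, Hist1h2aa, Hist1h2ba and Hist1h4c had Pol2 only, Hist3h2ba had H3K4me3 only, and the testis gene Hist1h1t had neither. The median Pol2 fold of the 60 was 48.8 (30.7 to 79.9), at the 99.4th percentile of the Pol2 list, with a median width of 3214 bp. The median H3K4me3 fold was 8.49 (4.06 to 18.5), at the 21.5th percentile, with a median width of 494 bp. Of the 19 lists with any gene of class both, the median percentiles of the 2 factors were farthest apart in this one. At Hist1h4d the Pol2 fold was 61.4 and the H3K4me3 fold 5.66, and at Hist1h3i 64.6 and 8.30. In Pax6 KD cells 40 of the 66 had an H3K4me3 peak, all of them among the 60, against 98.4% of all genes with both and 47.2% of all genes. The 60 genes share 34 Pol2 and 43 H3K4me3 peaks and include near-identical copies, to which short reads cannot be assigned with certainty, so the value of a single gene is uncertain.

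Stress genes divided at a pair of near-identical copies. Of 12 heat shock and stress genes 11 had both peaks, with a median Pol2 fold of 35.0, among them Hsp90ab1 (a constitutive chaperone) at 65.5 and Hspa5 (the chaperone of the endoplasmic reticulum) at 59.0. Hspa1a, an inducible chaperone, had Pol2 only, with a fold of 18.7, and its neighbour and copy Hspa1b had both, with 21.0 for Pol2 and 8.30 for H3K4me3. Their reads cannot be told apart with certainty. Zinc finger genes with Zfp symbols had both peaks in 256 of 344 (74.4%, against 45.8% of all genes), H3K4me3 only in 6 and neither in 82. Hox genes, which set position along the body axis, had both in 19 of 40, H3K4me3 only in 3 (Hoxb8, Hoxc8 and Hoxc10) and neither in 18, with median folds of 12.2 for Pol2 and 14.7 for H3K4me3 among the 19. Their shares with both (47.5%) and with neither (45.0%) were near those of all genes (45.8% and 50.0%). The annotation lists Hoxa3 as 2 entries, counted as 2 of the 40.

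**Figure D5:**
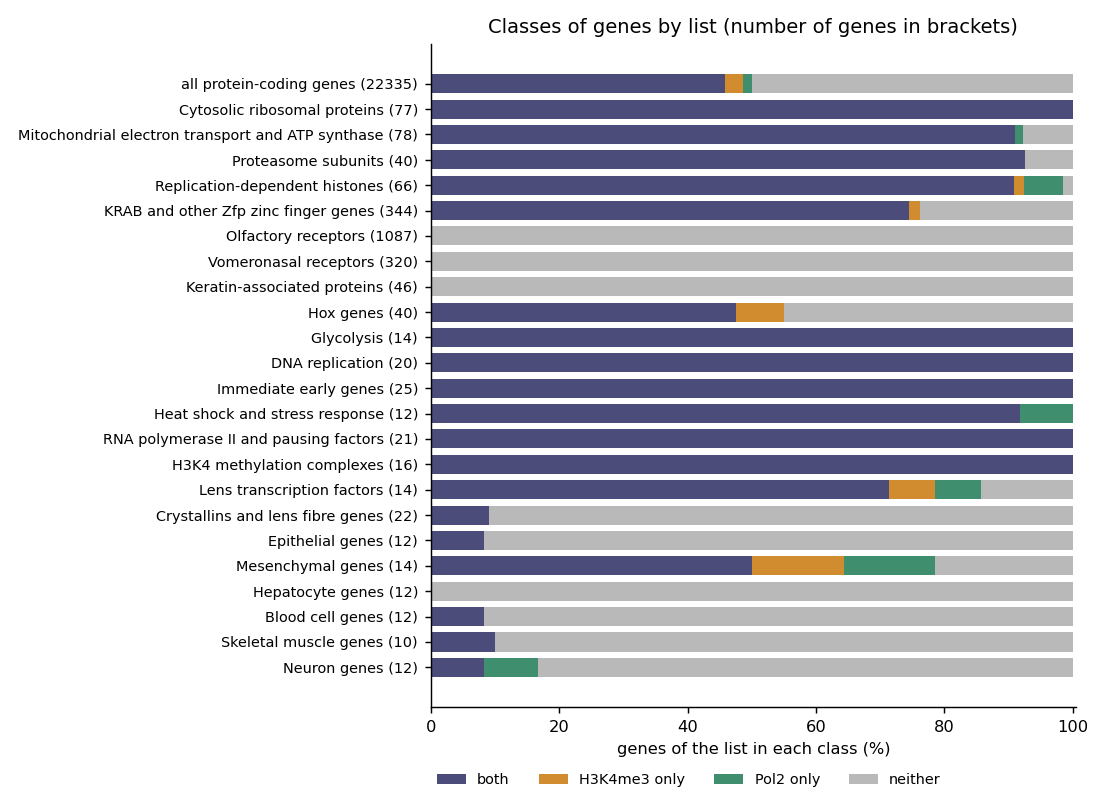
Percent of the genes of each list in the 4 classes in control αTN4 cells, with the number of genes in brackets and all 22335 protein-coding genes in the top bar. Ribosomal, glycolytic and replication genes all have both peaks, and 1086 of 1087 olfactory receptor genes have neither.

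The lens programme of αTN4 cells was present in part. Of 11 lens markers, 8 had both peaks, against 45.8% of all genes: the transcription factors Pax6, Prox1, Sox2, Maf and Six3, the α-crystallins Cryaa and Cryab, and the intermediate filament Vim. Vim is also a gene of mesenchymal cells, and Cryaa and Cryab were the only 2 of 22 crystallin and fibre genes with both. Pitx3, a transcription factor of lens development, had H3K4me3 only, and Foxe3, a transcription factor of lens epithelium, and Cdh1 (E-cadherin) had neither. All 16 markers of liver, blood, muscle and neurons had neither, against 50.0% of all genes. Some other genes of these tissues did have peaks: Klf1 (blood), Actn3 (muscle) and Syt1 (neurons) had both, and Tubb3 (neurons) had Pol2 only. Of 14 lens transcription factors found by symbol, 10 had both peaks (71.4%, against 45.8% of all genes). Among them were Six3 with a Pol2 fold of 27.4 and an H3K4me3 fold of 37.0 over 3387 bp, and Pax6 with 17.7 and 21.0 over 2648 bp. Eya1, a transcription cofactor, had neither. Sox1 and Tfap2a were not analysed here. All 14 had H3K4me2 in newborn lens, against 65.8% of all genes.

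Genes of lens fibres were mostly without either peak, where 50.0% of all genes had neither. Of 22 crystallin and fibre genes, Cryaa and Cryab had both, with Pol2 folds of 8.24 and 9.29 and H3K4me3 folds of 9.78 and 18.5, and the other 20 had neither. The H3K4me3 summits of Cryaa and Cryab lay upstream of the start, at −279 and −875 bp, and their Pol2 summits at −163 and 291 bp. In newborn lens 16 of the 22 had H3K4me2, where 65.8% of all genes had it, and in αTN4 cells 7, where 56.4% of all genes did. Epithelial genes had neither peak in 11 of 12, with Tjp1 (a tight junction protein) the one with both, while all 12 had H3K4me2 in lens, against 65.8% of all genes. Genes of mesenchymal cells were spread over all classes. Fn1 (fibronectin), Vim, Acta2 (smooth muscle actin), Cdh2 (N-cadherin), S100a4, Snai2 and Zeb2 had both, with Pol2 folds from 8.07 at Cdh2 to 38.5 at Vim. Twist1 and Zeb1 had H3K4me3 only, Snai1 and Col1a1 (a chain of type I collagen) had Pol2 only with folds of 9.27 and 13.8, and Col1a2, Col3a1 and Tagln had neither.

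Genes of other tissues were mostly in the class with neither, which held 50.0% of all genes. Of 1087 olfactory receptor genes 1086 had neither peak and Olfr56 had Pol2 only, and none of 320 vomeronasal receptor genes and 46 keratin-associated protein genes had either. The 12 liver genes had neither. Among 12 blood genes Klf1, an erythroid transcription factor, had both, with Pol2 at the edge of the 1 kb window. Among 10 muscle genes Actn3 (an actinin of fast fibres) had both, with its Pol2 summit at −548 bp. Among 12 neuron genes Syt1 (a sensor of synaptic release) had both, with folds of 5.87 and 5.41, Tubb3 (neuronal β-tubulin) had Pol2 only, with 10.9, and 10 had neither. All 12 neuron genes had H3K4me2 in newborn lens, and of the 12 liver genes 1 did, against 65.8% of all genes and 32.7% of genes with neither peak. The Pol2 and H3K4me3 lists hold no region on chromosome Y, so its 22 TSSs could only be classed as neither.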

How the data were processed

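ChIP-seq of control αTN4 cells (RNA polymerase II, H3K4me3, H3K4me2, H3K4me1, Pax6), Pax6 KD αTN4 cells (H3K4me3, H3K4me2, H3K4me1) and newborn lens (H3K4me2) was analysed, with 1 library each. RNA-seq was not analysed here. Per the study's methods, the authors mapped the reads with Bowtie (mm9), used the default settings of MACS2 for peaks and of SICER for H3K4me1 islands, and removed regions of the modENCODE blacklist. How reads with several matches were treated is not given in the sources used here. The deposited MACS2 lists give a fold enrichment (a ratio over background) and the −log10 of p and q for each peak. The authors' SICER lists give the count of ChIP and control reads, the fold, and a p-value and FDR, of which the ChIP count was used. The names of the H3K4me2 peaks hint at pooled replicates, which the methods do not state.

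TSSs are the distinct starts of 51710 protein-coding transcripts of GENCODE vM1 (NCBIM37, the build mm9) on chromosomes 1 to 19, X and Y. A peak counted at a TSS if at least 1 bp lay within 1 kb, the peak of highest fold stood for the TSS, and a gene took the union of its TSSs. Shares have 95% Wilson intervals and medians exact order-statistic intervals. Without replicates no test was made. MACS2 lists do not tell the depth of a library, which is unknown, so fold and width were compared only within a list. Classing was tested on simulated data, where 12260 of 12260 planted TSSs were recovered. These TSSs stood far from any other, and the planted peaks of each factor had a fixed width and distance. The simulation therefore checks the code and not how starts that share peaks or have several were classed. Members, lists and sequences were chosen with earlier results of these data known. Named genes are the 6 with the highest Pol2 fold (both), the 6 highest by H3K4me3 fold and the 4 widest (H3K4me3 only), the highest by Pol2 fold (Pol2 only), and list members of high fold or unlike their list. Some items that these rules select are not reported here. Scripts ran in Python 3.11.15 with pandas 2.3.3, NumPy 2.4.6, matplotlib 3.10.9 and SciPy 1.17.1.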

Additional observations from a re-analysis of the deposited data

How the results depend on the processing

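Each share, median width and median summit position was recomputed with other windows, thresholds, units and rules for the peak, and 46 of 92 recomputed values stayed within the interval of the reported value. The shares of TSSs with both, H3K4me3 only and neither were 43.5%, 3.42% and 51.3% with a window of 500 bp, 43.0%, 3.55% and 51.2% with the summit within 1 kb, 36.3%, 5.25% and 54.5% with the 10000 peaks of highest −log10 q per list, 43.9%, 2.73% and 51.8% with 1 TSS per gene, and 39.8%, 3.16% and 55.3% without TSSs near another gene's. With 2 kb, both was 46.3%, Pol2 only 1.78% and neither 49.1%. Pol2 only was 2.23% by summit and 3.95% with 10000 peaks. Pol2 peaks of the class with both were 893 bp wide with 10000 peaks, 800 bp without neighbours and 795 bp with the nearest summit, and those with Pol2 only 508 bp with the 500 bp window, 543 bp by summit and 768 bp with 10000 peaks. H3K4me3 peaks of the class with both were 1063 bp by summit, 1168 bp with 10000 peaks, 1061 bp without neighbours and 995 bp with the nearest summit. Those with H3K4me3 only were 742 bp with 500 bp, 970 bp with 10000 peaks, 595 bp with 1 TSS per gene and 620 bp with the nearest summit. In every alternative run the lone peaks were the narrower. The Pol2 summit of the class with both was at 16.0 bp with 2 kb, 54.0 bp with 1 TSS per gene, 26.0 bp without neighbours and 27.0 bp with the nearest summit, and with Pol2 only at 34.0 bp with 10000 peaks and 37.0 bp with 1 TSS per gene. The H3K4me3 summit of the class with both was at 295, 334, 313 and 263 bp with 10000 peaks, 1 TSS per gene, no neighbours and the nearest summit, and with H3K4me3 only at 302 bp with 10000 peaks and 335 bp with 1 TSS per gene. A −log10 q of at least 5 moved none of these values beyond its interval. For the other values that moved the cause was not tested. No paired analysis was possible because each factor has 1 library in each condition. With unknown depth, a missing peak means that none was called and not that the factor was absent.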
